A study of Mus musculus with 46 samples.

Results

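Liver RNA of sham-operated females (ShamF) was compared with that of sham-operated males (ShamM) at 12 weeks of age. All animals were wild-type C57BL6 mice on normal chow. Both groups had a sham procedure at 8 weeks of age, so the livers were taken 4 weeks after surgery. Each group held 3 libraries of polyadenylated RNA. The genes compared were the 10300 autosomal genes, of 17242 in the deposited table, with a group mean of at least 1 in either group. The unit is FPKM, fragments per kilobase of transcript, scaled to library size. The study also held males castrated at 8 weeks (CasM, 6 liver libraries at 12 weeks) and kidneys of the same arms. It further held livers of 18-month-old ShamF and ShamM mice (3 libraries each) and CasM mice (5 libraries). The 18-month groups also had their surgery at 8 weeks of age. The series addressed how castration relates to sex differences in healthy ageing.

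Only a mean per group was used for each gene, so no spread between libraries can be given and no test across libraries was computed. A difference is that of log2(mean + 1), ShamF minus ShamM, and "2-fold" means a difference of at least 1 in size. The added 1 understates the change of genes with low means. A mean of 0.01 stands for 0 and may be a failed estimate, so such a gene is said to be listed at 0. The authors added 0.01 to every mean, so values just above it are near 0 as well. The authors' own 12-week table gives each gene an entry for 1 of 3 comparisons. Of the 628 genes entered for ShamF against ShamM, all 628 had an adjusted p under 0.05, so the entry itself selects genes that differed. A gene entered elsewhere has no sex test here. The authors' 18-month table, from DESeq2, tested 10292 of the 10300 genes in livers of another age that share no library with these. Its p-values measure the spread between 3 libraries per group, and the labels do not say whether each library is a separate animal.

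Sex differences in mouse liver follow the pattern of growth hormone release from the pituitary. Males release the hormone in pulses with long pauses, and females release it almost continuously. The pulses activate the transcription factor STAT5B in bursts and keep male genes on, among them the major urinary proteins and several cytochrome P450 enzymes. The repressor BCL6 is higher in males and holds down female genes. CUX2, a homeodomain factor found in female liver, activates female genes and represses male ones. The enzymes under this control handle steroids, bile acids, fatty acids and drugs.

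The labelled sex was borne out by Y-linked genes, which lie outside the 10300. Eif2s3y, a translation initiation subunit, was listed at 0 in ShamF and had a mean of 56.6 FPKM in ShamM, and Ddx3y, an RNA helicase, had 0.0169 FPKM in ShamF against 22.2 FPKM in ShamM. Hepatocyte products were abundant in both groups. Apoa2, an apolipoprotein of high-density lipoprotein, had 26259 FPKM in ShamF and 22504 FPKM in ShamM, and the thyroxine carrier Ttr had 7229 FPKM in ShamF and 8234 FPKM in ShamM. The albumin gene Alb was listed at 0 in all 3 arms at 12 weeks but had 49901 expression units in ShamF and 45204 in ShamM at 18 months, so its 12-week value may be a failed estimate.

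Several of the largest differences lie in pairs of similar gene copies on chromosome 7, and their upstream sequences show how alike the copies are. The next 6 sequences are the 250 bases before the RefSeq start, 5′ to 3′ on the gene's strand, from the GRCm38.p6 build. Capitals mark bases that differ from the other copy of the pair or have no partner there.
Cyp2a4, chr7:26306942-26307191, plus strand: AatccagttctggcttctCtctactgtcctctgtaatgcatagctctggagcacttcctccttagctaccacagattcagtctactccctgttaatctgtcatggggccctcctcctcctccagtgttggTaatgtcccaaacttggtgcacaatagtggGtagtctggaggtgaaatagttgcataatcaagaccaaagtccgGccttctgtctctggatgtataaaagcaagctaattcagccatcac
Cyp2a5, chr7:26835089-26835338, plus strand: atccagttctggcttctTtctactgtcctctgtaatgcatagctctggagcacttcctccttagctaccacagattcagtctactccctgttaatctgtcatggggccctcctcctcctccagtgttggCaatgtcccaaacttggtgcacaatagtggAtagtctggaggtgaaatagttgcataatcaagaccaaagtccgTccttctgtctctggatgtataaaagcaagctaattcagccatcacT
Cyp2b9, chr7:26173159-26173408, plus strand: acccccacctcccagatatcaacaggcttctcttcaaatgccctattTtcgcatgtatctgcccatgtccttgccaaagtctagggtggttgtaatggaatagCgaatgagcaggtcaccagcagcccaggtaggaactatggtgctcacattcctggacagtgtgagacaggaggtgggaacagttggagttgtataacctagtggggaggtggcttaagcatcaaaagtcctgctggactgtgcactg
Cyp2b13, chr7:26061245-26061494, plus strand: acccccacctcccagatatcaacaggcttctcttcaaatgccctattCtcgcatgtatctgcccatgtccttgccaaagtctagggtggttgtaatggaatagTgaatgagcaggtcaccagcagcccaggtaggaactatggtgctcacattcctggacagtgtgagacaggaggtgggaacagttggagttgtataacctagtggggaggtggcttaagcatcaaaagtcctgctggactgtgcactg
Hamp2, chr7:30924182-30924431, minus strand: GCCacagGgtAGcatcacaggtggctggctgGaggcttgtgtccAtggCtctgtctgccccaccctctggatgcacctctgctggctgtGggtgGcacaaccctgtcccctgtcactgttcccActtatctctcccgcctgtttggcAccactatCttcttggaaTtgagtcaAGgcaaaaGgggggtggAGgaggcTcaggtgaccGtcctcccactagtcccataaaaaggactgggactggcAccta
Hamp, chr7:30944030-30944279, minus strand: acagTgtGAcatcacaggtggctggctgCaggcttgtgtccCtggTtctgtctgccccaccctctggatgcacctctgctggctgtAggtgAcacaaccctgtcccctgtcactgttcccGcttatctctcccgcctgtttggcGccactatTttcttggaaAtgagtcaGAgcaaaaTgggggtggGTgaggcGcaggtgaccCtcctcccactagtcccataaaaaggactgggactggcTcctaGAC
Cyp2a4 and Cyp2a5 were identical at 245 of 251 aligned positions, 97.6%, and Cyp2b9 and Cyp2b13 at 248 of 250, 99.2%. The hepcidin genes Hamp2 and Hamp matched at 227 of 253 aligned positions, 89.7%. Within a pair, the levels beside these sequences were close in some cases and far apart in others. Cyp2a4 had 800.2 FPKM in ShamF against 0.289 FPKM in ShamM, while Cyp2a5 had 1533 FPKM in ShamF against 311 FPKM in ShamM. Cyp2b9 had 155 FPKM in ShamF against 0.0486 FPKM in ShamM, and Cyp2b13 had 149 FPKM in ShamF and was listed at 0 in ShamM. Hamp2 had 6928 FPKM in ShamF against 227 FPKM in ShamM, and Hamp had 6896 FPKM in ShamF against 3162 FPKM in ShamM. These bases lie before the RefSeq start, and the transcripts were not compared here. The annotated gene span of Hamp2 (30922372 to 30924681) nevertheless covers its window, and that of Cyp2a4 covers the last bases of its window. The genes of each pair are close copies in their coding parts too, by general knowledge, so how reads were divided within a pair is uncertain.

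A further pair of upstream sequences shows letters tied to the regulators named above, with matches in capitals. The motifs searched on both strands were TTCNNNGAA, which STAT5 binds, and ATCAAT, a core bound by CUX2 and its relative HNF6.
A1bg, chr15:60921271-60921520, minus strand: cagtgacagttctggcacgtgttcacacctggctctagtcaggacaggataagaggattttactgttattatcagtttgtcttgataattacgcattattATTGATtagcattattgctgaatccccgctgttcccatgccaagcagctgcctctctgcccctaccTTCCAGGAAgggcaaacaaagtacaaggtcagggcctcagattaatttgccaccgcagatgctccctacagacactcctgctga
Mup7, chr4:60070476-60070725, minus strand: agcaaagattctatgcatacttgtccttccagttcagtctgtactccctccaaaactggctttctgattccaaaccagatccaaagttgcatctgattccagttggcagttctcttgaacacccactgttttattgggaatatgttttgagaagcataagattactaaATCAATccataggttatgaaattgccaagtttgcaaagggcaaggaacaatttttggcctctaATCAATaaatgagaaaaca
A1bg, a plasma glycoprotein gene high in females, held 1 match of each motif. Its annotated gene span (60896859 to 60923012) covers the whole A1bg window, so these matches lie inside the annotated gene. Mup7, a male urinary protein gene, held 2 matches of ATCAAT and 0 of TTCNNNGAA. Both are examples that hold matches, whereas Cux2, Cyp2a4 and Cyp2b9 held 0 matches of either motif. RefSeq sequences were found for 237 of the 315 genes at least 2-fold higher in ShamF, 188 of the 229 at least 2-fold lower and 8313 of all 10300. TTCNNNGAA was present in 6.75% of the windows of higher genes, 7.45% of those of lower genes, 6.13% of those of all genes compared and 7.18% of the 27025 windows in the table. ATCAAT was present in 6.33% of higher genes, 11.2% of lower genes, 3.98% of all genes compared and 6.97% of the whole table. These shares describe the letters only. Gene copies such as the Mup family share their upstream sequence and are not independent counts.

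Most genes differed little between the sexes. The median difference over the 10300 genes was -0.02, and 76.3% had a difference under 0.5 in size. The middle 90% of genes, between the 5th and 95th percentiles, spanned -0.72 to 0.79. At the 2-fold limit, 315 genes were higher in ShamF, 3.06% of those compared, and 229 were lower, 2.22%. The share past the limit rose with abundance in both directions, more steeply for lower genes. The added 1 makes the limit harder to pass at low means, so part of this rise is built in. Where the larger mean was 100 FPKM or more, 4.79% of 919 genes were higher and 7.4% lower, and where it was 1 to 5 FPKM, 2.22% of 3236 genes were higher and 0.649% lower. Among the genes entered for this comparison by the authors, 264 of the 10300 were higher in ShamF, 2.56%, and 313 were lower, 3.04%. Of the 315 higher genes only 56 had such an entry, and of the 229 lower genes 29.

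**Figure D1:**
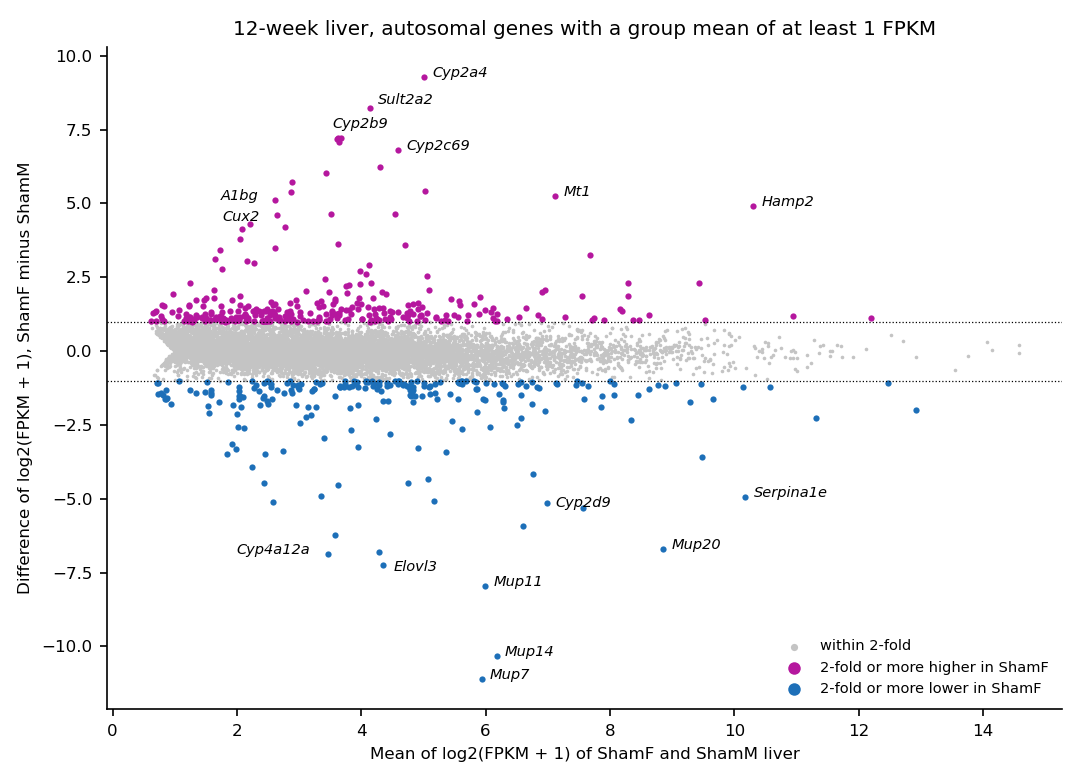
Each point is a gene in 12-week liver, with the mean of its log2(FPKM + 1) in the 2 groups on the horizontal axis and the difference, ShamF minus ShamM, on the vertical axis. Dotted lines mark the 2-fold limit, with 315 genes above and 229 below. Cyp2a4 stands highest at 9.28 and Mup7 lowest at -11.10.

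Among the regulators, the 36 transcription factors and chromatin regulators listed for liver sex bias had 5 members higher and 3 lower at the 2-fold limit, with a median of 0.11. Cux2 (chromosome 5, 121856366 to 122050102, mm10) had the largest difference of the list at 4.62, with 29.98 FPKM in ShamF against 0.260 FPKM in ShamM. Bcl6 had 3.997 FPKM in ShamF against 17.8 FPKM in ShamM. Trim24, a chromatin-reading cofactor, had 38.6 FPKM in ShamF against 6.996 FPKM in ShamM. All 3 were called in the same direction at 18 months in the authors' deposited table, with DESeq2 adjusted p = 2.44e-14 for Cux2, 9.5e-08 for Bcl6 and 0.0108 for Trim24. The homeodomain factor gene Onecut1, which encodes HNF6, had 4.79 FPKM in ShamF against 13.9 FPKM in ShamM. At 18 months it had 2.73 expression units in ShamF and 2.22 in ShamM and was not called. Whether its difference changed with age was not tested. Nr1i3, the xenobiotic receptor CAR, had 472 FPKM in ShamF against 173 FPKM in ShamM, with an adjusted p of 0.000856 in the authors' deposited 12-week table and no call at 18 months.

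Growth hormone and prolactin signalling genes mostly stayed within 2-fold, with 1 of 20 members higher, 1 lower and a median of 0.17. The prolactin receptor gene Prlr was the higher one, with 68.8 FPKM in ShamF against 15.6 FPKM in ShamM. The authors' deposited tables called it higher at both ages, and its 18-month means were 99.5 expression units in ShamF and 23.6 in ShamM. Igfbp1, a binding protein for insulin-like growth factors, was the lower one, with 16.4 FPKM in ShamF against 36.8 FPKM in ShamM. The oestrogen receptor gene Esr1 had 6.24 FPKM in ShamF against 1.66 FPKM in ShamM and was also called higher at both ages. The epidermal growth factor receptor gene Egfr had 18.7 FPKM in ShamF against 122 FPKM in ShamM, and was called lower at both ages, with an 18-month DESeq2 adjusted p = 5.77e-07 in the authors' deposited table.

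Major urinary proteins, which carry pheromones into male urine, held the lowest differences of all. Of the 20 members compared, 18 were at least 2-fold lower in ShamF, 0 were higher, and the median was -3.97. Mup7 (chromosome 4, 60066469 to 60070475, mm10) had 0.303 FPKM in ShamF against 2866 FPKM in ShamM, a ratio of the means of 9473 in favour of males. Mup14 had 1.01 FPKM in ShamF against 2594 FPKM in ShamM, and Mup20, which encodes the pheromone darcin, had 44.4 FPKM in ShamF against 4693 FPKM in ShamM. Mup11 had 3.03 FPKM in ShamF against 1005 FPKM in ShamM. Not every copy was near 0 in females. Mup3, named here after its values were seen, kept 3882 FPKM in ShamF against 15447 FPKM in ShamM, a difference of -1.99. Together the family took 0.669% of all summed FPKM in ShamF and 4.51% in ShamM, sums that miss Alb, listed at 0. At 18 months 18 of the 20 were called lower in ShamF and 0 higher. Many of the copies are nearly the same in sequence, so how reads were divided among them is uncertain. All 20 lay below 0, but copies that share reads move together and are not independent.

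The cytochrome P450 enzymes, which oxidize steroids, fatty acids and drugs, differed in both directions by subfamily. Of 7 Cyp2a and Cyp2b genes 5 were at least 2-fold higher in ShamF and 0 lower, with a median of 6.23. Besides the pairs above, Cyp2a22 had 169.6 FPKM in ShamF against 1.27 FPKM in ShamM. Of 12 Cyp2c genes 6 were higher and 3 lower. Cyp2c69 had 253 FPKM in ShamF against 1.29 FPKM in ShamM and Cyp2c40 had 116 FPKM in ShamF against 3.68 FPKM in ShamM, while Cyp2c67 had 56.0 FPKM in ShamF against 158 FPKM in ShamM. Of 8 Cyp3a genes 5 were higher and 0 lower, with 2 of the 8 listed at 0 in 1 group. The lowest P450 differences lay in the Cyp2d and Cyp4a subfamilies. Cyp2d9, a steroid hydroxylase, had 20.3 FPKM in ShamF against 753 FPKM in ShamM. Cyp4a12a, which makes the eicosanoid 20-HETE, had 0.0189 FPKM in ShamF against 118 FPKM in ShamM, and its copy Cyp4a12b had 0.0190 FPKM in ShamF against 34.4 FPKM in ShamM. Cyp2a4, Cyp2b9, Cyp2b13, Cyp2a22, Cyp2c69 and Cyp2c40 were called higher at 18 months and Cyp2c67, Cyp2d9, Cyp4a12a and Cyp4a12b lower. Cyp2a5 missed the threshold there, with a DESeq2 adjusted p = 0.0513 in the authors' deposited table.

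At 18 months 4 of the 8 Cyp3a genes were called higher in ShamF and 1 lower. The lower one, Cyp3a25, named after its values were seen, had 297.7 expression units in ShamF against 366 in ShamM then, and 371 FPKM in ShamF against 319.9 FPKM in ShamM at 12 weeks. Cyp3a41a had 16.7 FPKM in ShamF and was listed at 0 in ShamM at 12 weeks, and had 1662 expression units in ShamF against 0.227 in ShamM at 18 months. Cyp3a16 had 14.4 FPKM in ShamF against 0.109 FPKM in ShamM at 12 weeks, and 167 expression units in ShamF against 0.0233 in ShamM at 18 months. Cyp3a44 had 19.7 FPKM in ShamF against 0.0343 FPKM in ShamM at 12 weeks, and 113 expression units in ShamF against 0.0433 in ShamM at 18 months. Cyp3a11, the main Cyp3a enzyme of mouse liver, stayed within 2-fold at 960.3 FPKM in ShamF and 1415 FPKM in ShamM at 12 weeks, and was not called at 18 months, with 1041 expression units in ShamF and 1663 in ShamM. The 2 ages were processed separately in units that differ, so levels across ages are set side by side and not compared. Cyp3a16, Cyp3a41b, Cyp3a41a and Cyp3a44 lie together on chromosome 5. They are related copies, so how reads were divided among them is uncertain at either age.

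**Figure D2:**
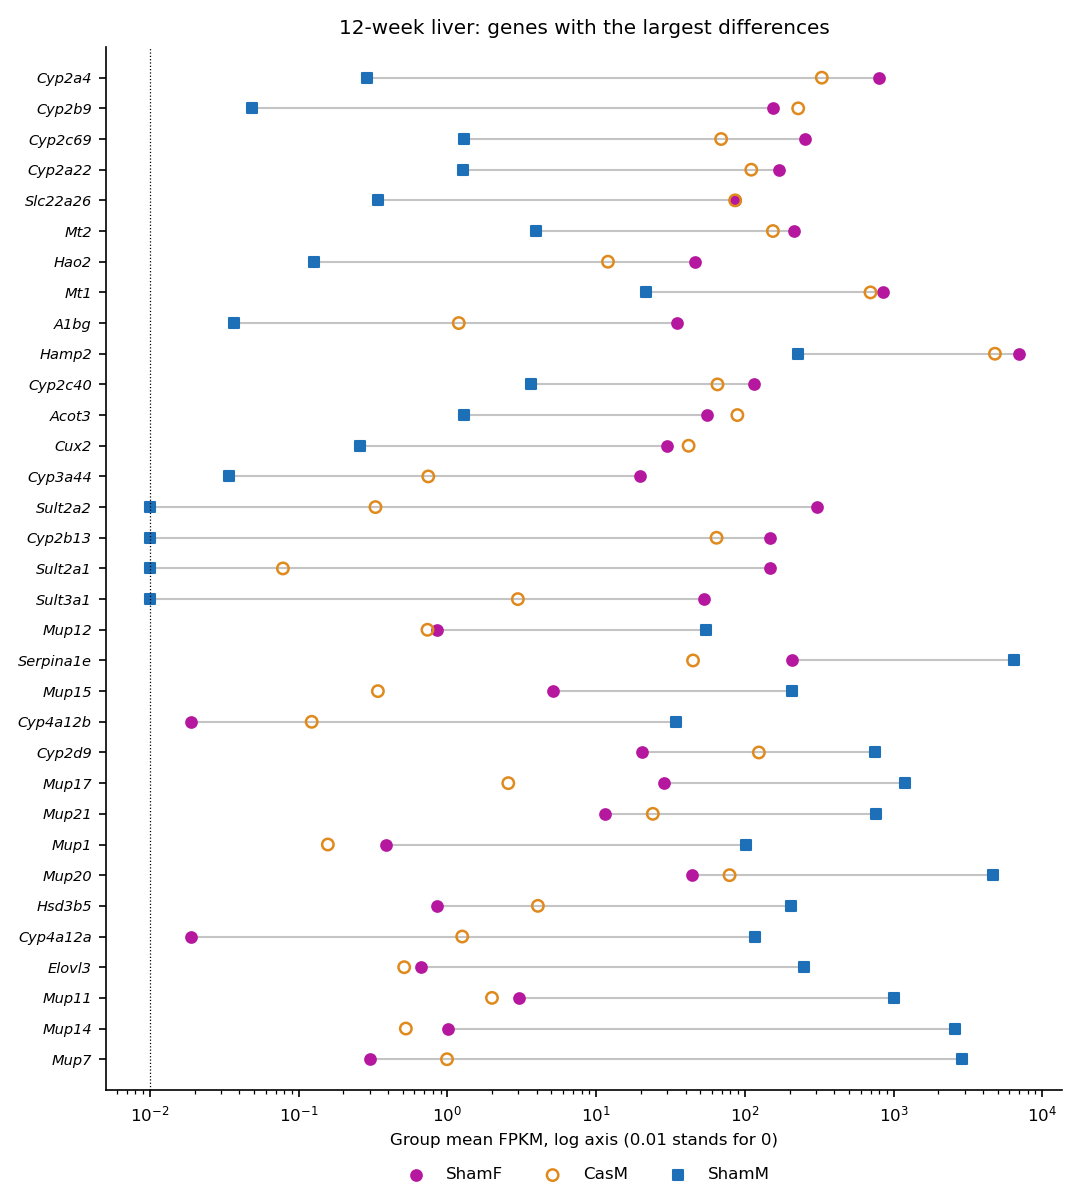
Group means in FPKM on a log axis for 14 of the 15 largest and the 15 smallest differences and the 4 genes listed at 0 in ShamM. Filled circles are ShamF, open circles CasM and squares ShamM, and the dotted line marks 0.01, which stands for 0. Sult2a2 and Sult2a1 have high means in ShamF alone, while Slc22a26 and Cux2 have similar means in ShamF and CasM.

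Sulfotransferases, which attach sulfate to steroids, bile acids and drugs, were higher in females as a group. Of 15 members 11 were at least 2-fold higher in ShamF and 1 lower, with a median of 1.23. These figures include 6 members listed at 0 in 1 group. Sult2a2, Sult2a1 and Sult3a1 had 305, 147 and 53.0 FPKM in ShamF and all 3 were listed at 0 in ShamM. The exception, Sult2a8, had 207 FPKM in ShamF against 581 FPKM in ShamM. At 18 months 10 members were called higher and 1 lower, and Sult2a1 had 1207 expression units in ShamF against 0.170 in ShamM. The Sult2a genes are close copies and share the uncertainty of the Mup genes.

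Flavin monooxygenases oxidize nitrogen and sulfur in small molecules. Fmo2, Fmo1 and Fmo4 lie near each other on chromosome 1, and each was at least 2-fold higher in ShamF. They had 29.4, 313 and 14.4 FPKM in ShamF against 5.45, 143 and 6.62 FPKM in ShamM. Fmo5, on another chromosome, had 138 FPKM in ShamF and 179.7 FPKM in ShamM.

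Of 18 UDP-glucuronosyltransferases, which attach glucuronic acid, 1 was at least 2-fold higher in ShamF and 6 lower. Ugt2b1 had 60.7 FPKM in ShamF against 249 FPKM in ShamM, and Ugt2b38 had 0.273 FPKM in ShamF against 10.4 FPKM in ShamM. Of 21 glutathione transferases 3 were higher and 5 lower. Gstp1 had 204 FPKM in ShamF against 2467 FPKM in ShamM, and its neighbouring copy Gstp2 had 0.511 FPKM in ShamF against 4.54 FPKM in ShamM. Gstt2 went the other way, with 115 FPKM in ShamF against 40.7 FPKM in ShamM. Of 13 carboxylesterases, which split esters, 0 were higher and 4 lower, among them Ces3a with 345 FPKM in ShamF against 1136 FPKM in ShamM. At 18 months 7 glucuronosyltransferases, 3 glutathione transferases and 6 carboxylesterases were called lower in ShamF, and 2, 0 and 1 higher.

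Enzymes that make or break down steroids had 2 of 25 members at least 2-fold higher in ShamF and 5 lower, with a median of -0.48. Hsd3b5, a ketosteroid reductase of male liver, had 0.846 FPKM in ShamF against 203 FPKM in ShamM. Cyp7b1, which hydroxylates oxysterols, had 8.70 FPKM in ShamF against 92.6 FPKM in ShamM. Srd5a1, a steroid 5-alpha-reductase, had 7.48 FPKM in ShamF against 40.5 FPKM in ShamM, and was called lower at both ages. Cyp17a1, which makes androgen precursors, had the opposite sign, with 46.7 FPKM in ShamF against 5.30 FPKM in ShamM. It was not called at 18 months, where its means were 85.5 expression units in ShamF and 17.4 in ShamM. Hsd3b5 lies inside the annotated span of Zfp697 on the other strand, and the sources used here do not say whether reads were counted by strand.

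Membrane carriers of organic ions had 6 of 23 members at least 2-fold higher in ShamF and 3 lower. Slc22a26, of the organic anion transporter family, had 85.7 FPKM in ShamF against 0.341 FPKM in ShamM, and its neighbour Slc22a28 had 0.0778 FPKM in ShamF against 10.97 FPKM in ShamM. The uptake carriers Slco1a4 and Slco1a1 are neighbours too. Slco1a4 had 78.9 FPKM in ShamF against 12.9 FPKM in ShamM, whereas Slco1a1 had 6.53 FPKM in ShamF against 149 FPKM in ShamM. All 4 were called in those directions at 18 months. Bile acid genes as a list had 3 of 26 members higher and 3 lower, with a median of -0.14, and Cyp8b1, which sets the cholic acid share, had 42.4 FPKM in ShamF against 136 FPKM in ShamM.

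Metal and iron genes included both metallothioneins and both hepcidins among 5 of 23 members at least 2-fold higher in ShamF, with 0 lower and a median of 0.03. Mt1 and Mt2, small proteins that bind zinc and copper, lie side by side on chromosome 8. Mt1 had 855 FPKM in ShamF against 21.6 FPKM in ShamM, and Mt2 had 213 FPKM in ShamF against 3.95 FPKM in ShamM. Both were called higher at 18 months, with DESeq2 adjusted p = 5.47e-69 and 1.34e-24 in the authors' deposited table. Hepcidin limits the release of iron into blood. The Hamp and Hamp2 means above were 6896 and 6928 FPKM in ShamF, so the 2 copies were nearly level in females, whereas in ShamM they were 3162 and 227 FPKM. Id1, a target of the bone morphogenetic protein pathway that drives hepcidin, had 33.2 FPKM in ShamF against 8.83 FPKM in ShamM and was called higher at 18 months.

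Serpins and alpha macroglobulins, which inhibit proteases or carry hormones, had 1 of 27 members at least 2-fold higher in ShamF and 5 lower. Serpina1e, an alpha-1-antitrypsin copy, had 207 FPKM in ShamF against 6452 FPKM in ShamM, and Serpina3k had 1159 FPKM in ShamF against 5548 FPKM in ShamM. Serpina6, the plasma carrier of corticosterone, was the higher one, with 697 FPKM in ShamF against 140.3 FPKM in ShamM. In the liver metabolite table of the same age corticosterone itself had a mean relative abundance of 0.00824 in ShamF against 0.0247 in ShamM. Among its 737 compounds, 31 (4.21%) were at least 2-fold higher and 58 (7.87%) at least 2-fold lower in ShamF. Corticosterone and taurine, given below, were chosen after their values were seen, and the sources used here give neither their numbers of animals nor their spread. Complement and coagulation genes had 0 of 34 members higher and 6 lower, with a median of -0.17. The lower members included 4 of the pore-forming membrane attack complex. C6 had 4.68 FPKM in ShamF against 126 FPKM in ShamM, C8a had 120.0 FPKM in ShamF against 443 FPKM in ShamM, C8b had 39.5 FPKM in ShamF against 151 FPKM in ShamM, and C9 had 138 FPKM in ShamF against 396 FPKM in ShamM. All 4 were called lower in ShamF at 18 months. A1bg had 34.9 FPKM in ShamF against 0.0366 FPKM in ShamM, and was called higher at 18 months.

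Fatty acid synthesis and desaturation had 3 of 20 members at least 2-fold higher in ShamF and 4 lower, with a median of 0.09. Elovl3, which lengthens fatty acid chains, had 0.661 FPKM in ShamF against 251 FPKM in ShamM. Its last bases overlap the end of Pitx3 on the other strand. The malic enzyme gene Me1 had 27.4 FPKM in ShamF against 117 FPKM in ShamM. Srebf1, the master regulator of fatty acid synthesis, had the opposite sign at 356 FPKM in ShamF against 97.4 FPKM in ShamM, and the lipid droplet gene Pnpla3 had 17.5 FPKM in ShamF against 4.67 FPKM in ShamM. Fatty acid oxidation and ketogenesis had 1 of 30 members higher and 2 lower, but 26 of the 30 lay below 0, with a median of -0.41. Lipid uptake and lipid droplet genes had 2 of 28 members higher and 5 lower, with 21 below 0 and a median of -0.42. Acot3, a peroxisomal acyl-CoA thioesterase, had 55.9 FPKM in ShamF against 1.29 FPKM in ShamM. Hao2 and Hao1, hydroxyacid oxidases of peroxisomes, went opposite ways. Hao2 had 46.1 FPKM in ShamF against 0.126 FPKM in ShamM, and Hao1 had 56.8 FPKM in ShamF against 198 FPKM in ShamM. G6pc, the glucose-6-phosphatase that releases glucose, had 42.1 FPKM in ShamF against 207 FPKM in ShamM.

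Amino acid, urea and one-carbon genes had 3 of 42 members at least 2-fold higher in ShamF and 3 lower, with a median of 0.15. Csad, the decarboxylase on the path to taurine, had 26.4 FPKM in ShamF against 163 FPKM in ShamM, and taurine itself had a mean relative abundance of 10.02 in ShamF against 5.70 in ShamM. Hpd, of tyrosine breakdown, had 2968 FPKM in ShamF against 1292 FPKM in ShamM. Of sterol genes 3 of 25 were higher and 2 lower. Insig2, which holds sterol sensors in the endoplasmic reticulum, had 18.5 FPKM in ShamF against 98.9 FPKM in ShamM, while its relative Insig1 had 302 FPKM in ShamF against 143 FPKM in ShamM.

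**Figure D3:**
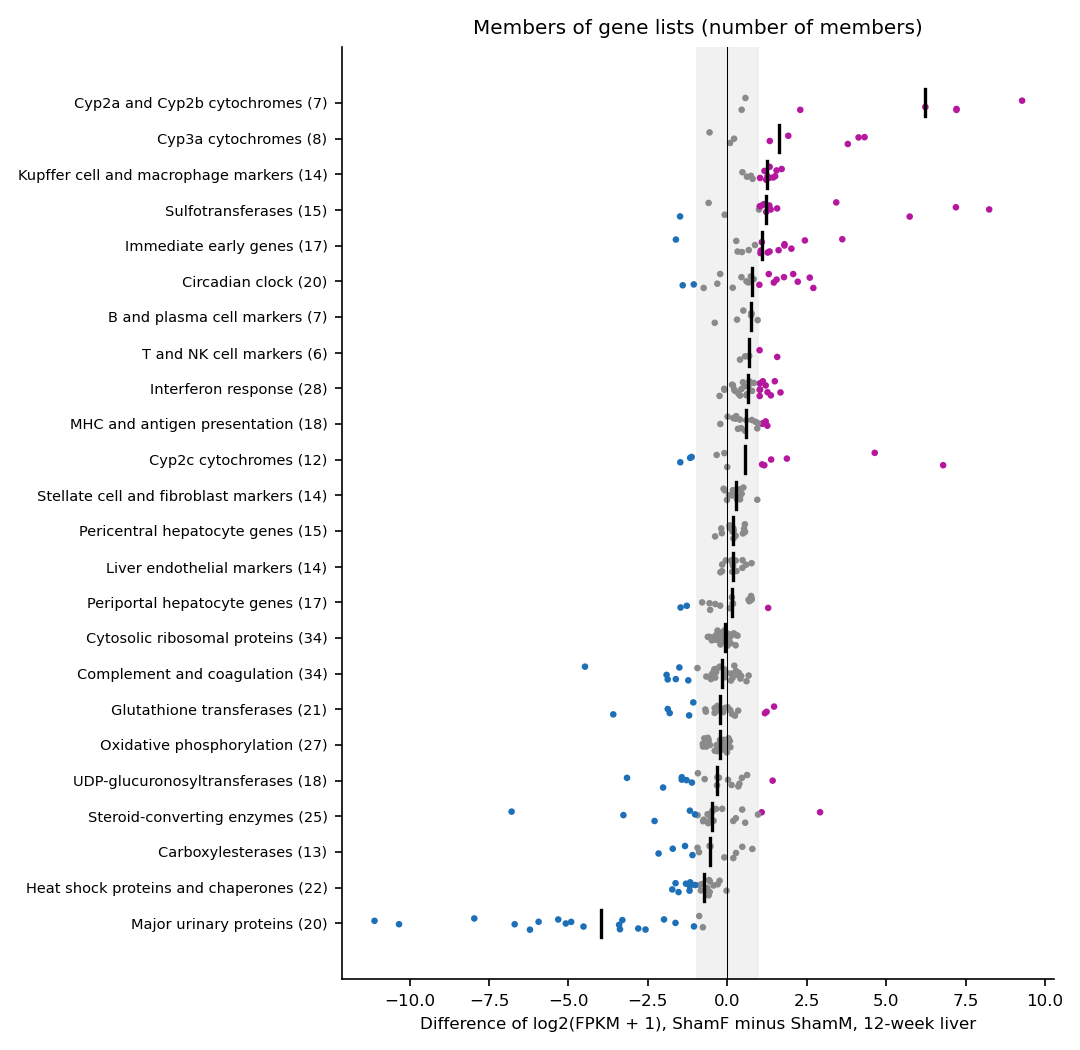
Differences of log2(FPKM + 1), ShamF minus ShamM, for the members of 24 gene lists, with the number of members in parentheses. Each point is a gene, black bars are list medians and the grey band spans the 2-fold limit. List medians run from 6.23 for Cyp2a and Cyp2b genes to -3.97 for major urinary proteins.

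Markers of liver macrophages were higher in females. Of 14 Kupffer cell and macrophage markers compared, 10 were at least 2-fold higher in ShamF, 0 were lower, all 14 lay above 0 and the median was 1.25. Their summed level was 300.5 FPKM in ShamF and 107 FPKM in ShamM. Clec4f, a lectin specific to Kupffer cells, had 84.7 FPKM in ShamF against 25.2 FPKM in ShamM. The complement subunit gene C1qa had 44.9 FPKM in ShamF against 14.7 FPKM in ShamM and the scavenger protein gene Cd5l had 28.0 FPKM in ShamF against 9.22 FPKM in ShamM. At 18 months 6 of the 14 were called higher, these 3 among them. Among the other 4 markers listed, 3 had means under 1 FPKM in both groups, none was listed at 0, and the X-linked Vsig4 had 11.96 FPKM in ShamF against 3.65 FPKM in ShamM. More cells of a type and more RNA per cell cannot be told apart in these samples.

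Interferon response and antigen presentation genes leaned to females too. Interferon response genes had 10 of 28 members at least 2-fold higher in ShamF and 0 lower, with a median of 0.64. Gbp3, an interferon-induced guanylate-binding protein, had 9.44 FPKM in ShamF against 2.27 FPKM in ShamM, and Ifit3 had 15.8 FPKM in ShamF against 4.95 FPKM in ShamM. Antigen presentation genes had 4 of 18 members higher, 0 lower and a median of 0.57, with the class II chain gene H2-Aa at 43.0 FPKM in ShamF against 17.4 FPKM in ShamM. T and NK cell markers had 2 of 6 members higher, while 11 of the 17 in the table were under 1 FPKM in both groups. The 6 members had a summed level of 14.4 FPKM in ShamF and 4.65 FPKM in ShamM. A gene needed 1 FPKM in only 1 group to be compared. By that ShamM sum, at least 1 of the 6 entered through ShamF alone. The lean of this list to ShamF was therefore partly set by the minimum. B and plasma cell markers, with 7 of 12 listed genes compared, had 0 past 2-fold. Their sums were 16.0 FPKM in ShamF and 8.77 FPKM in ShamM. The part of macrophage and lymphocyte markers in the interferon and antigen presentation values was not tested.

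Other cell markers and hepatocyte zone genes mostly stayed within 2-fold at 12 weeks. Over all genes compared, 3.06% were higher and 2.22% lower at that limit. Of 14 endothelial and 14 stellate cell and fibroblast markers 0 were past the limit, with medians of 0.17 and 0.28. Cholangiocyte markers had 0 of 7 past it and a median of 0.01. Of 15 pericentral genes 0 were past the limit, and of 17 periportal genes 1 was higher and 2 lower. Hepatocyte markers had 0 of 15 higher and 1 lower, and blood cell markers 1 of 6 higher and 0 lower. Pancreas and kidney markers had 2 of 16 genes above the minimum, Cela1 at 6.43 FPKM in ShamF and 11.3 FPKM in ShamM and Cela2a at 1.02 FPKM in ShamF and 1.01 FPKM in ShamM. Cytosolic ribosomal protein genes had 0 of 34 and oxidative phosphorylation genes 0 of 27 past 2-fold, with medians of -0.08 and -0.23.

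Clock and early response genes differed widely at 12 weeks. Of 20 circadian clock genes, which keep daily time in liver cells, 9 were at least 2-fold higher in ShamF and 2 lower, with a median of 0.78. Per3, a clock repressor, had 39.1 FPKM in ShamF against 5.14 FPKM in ShamM. The clock output factor gene Dbp had 252 FPKM in ShamF against 59.1 FPKM in ShamM, and Ciart, another repressor, had 40.4 FPKM in ShamF against 5.85 FPKM in ShamM. Of 17 immediate early genes, which are induced within minutes by many stimuli, 11 were higher and 1 lower, with a median of 1.09. Egr1 had 42.2 FPKM in ShamF against 2.52 FPKM in ShamM and Junb had 39.4 FPKM in ShamF against 8.99 FPKM in ShamM. Heat shock proteins and chaperones, which refold proteins, had 0 of 22 higher and 8 lower, all 22 below 0, with a median of -0.72. Hsp90aa1, an inducible chaperone, had 25.7 FPKM in ShamF against 81.7 FPKM in ShamM and an adjusted p of 0.00223 in the authors' deposited 12-week table. The sources used here do not give the time of day of tissue collection. The E-box CACGTG, which clock activators bind, was present in 4 of 16 upstream windows of clock genes, 25%, and in 8.48% of those of all genes compared. Its share was 7.59% in genes at least 2-fold higher in ShamF and 8.51% in those at least 2-fold lower. Ciart held 3 matches and Dbp held 0.

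**Figure D4:**
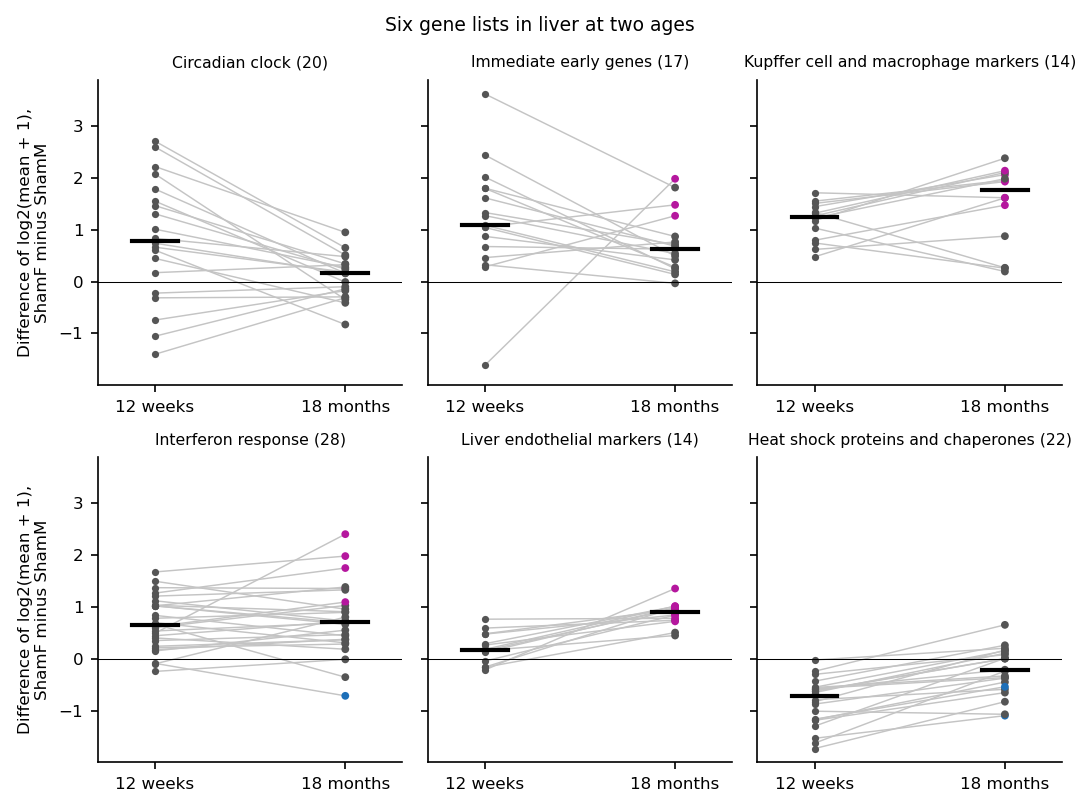
Differences of log2(mean + 1), ShamF minus ShamM, in liver at 12 weeks and 18 months for 6 gene lists, with the number of members in parentheses. Each line joins a gene across ages, black bars are medians, and points at 18 months are magenta where called higher in ShamF and blue where called lower. The clock median is 0.78 at 12 weeks and 0.16 at 18 months, and the macrophage median is 1.25 and 1.77.

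At 18 months the authors called 661 of 10292 genes higher in ShamF, 6.42%, and 545 lower, 5.3%. Of the 315 genes higher at 12 weeks 137 were called higher there, 43.5%, and 3 lower. Of the 229 lower genes 139 were called lower, 60.7%, and 2 higher. The share went with the size of the 12-week difference. Of the 29 higher genes with a difference of at least 3, 26 were called the same way, against 102 of the 267 with a difference from 1 to 2. Of the 30 lower genes with a difference of at least 3 in size, all 30 were called lower, against 93 of 179 with a difference from 1 to 2. The 18-month means carry a shift, with a median difference of 0.13 over these genes. The log2 ratio of the means stood a median of 0.21 above the authors' fold, turned to ShamF over ShamM. The calls rest on the authors' test and not on these means.

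**Figure D5:**
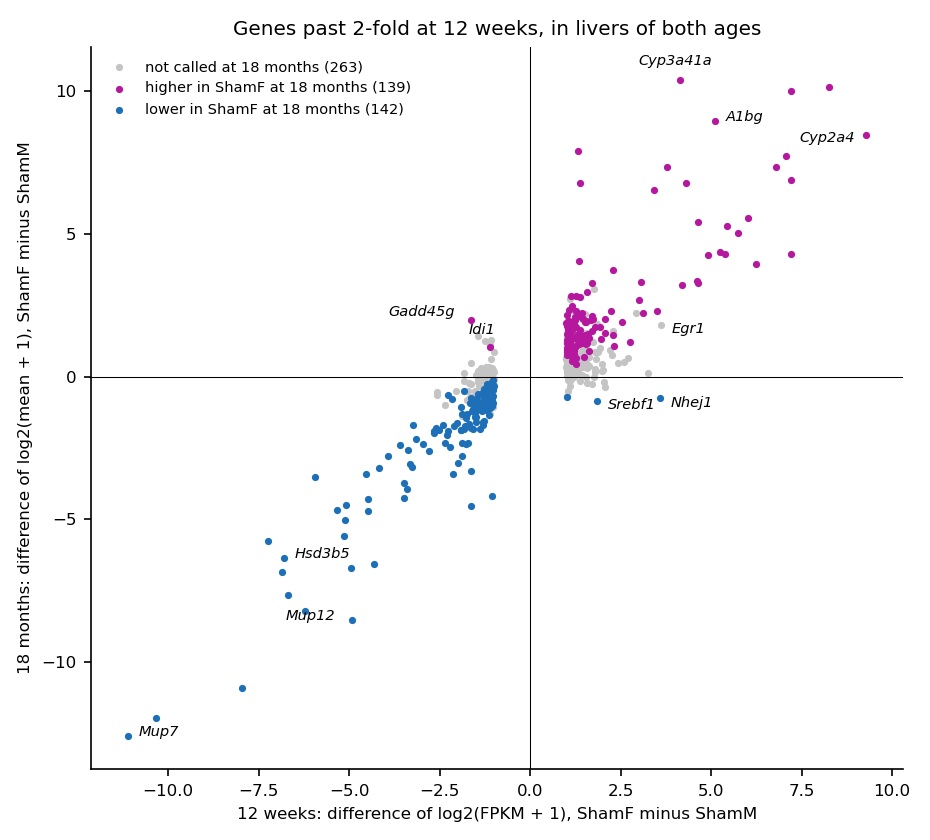
The 544 genes past 2-fold at 12 weeks, with the difference of log2(FPKM + 1), ShamF minus ShamM, at 12 weeks on the horizontal axis and the difference of log2(mean + 1) at 18 months on the vertical axis. Colours give the authors' 18-month call. Mup7 lies at -11.10 and -12.60, and 5 called genes lie in the quadrants of opposite sign.

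The 5 genes called in the opposite direction at 18 months were chosen here for that pattern. Srebf1, with the 12-week means above, had 73.1 expression units in ShamF against 132 in ShamM at 18 months. Its annotated span overlaps that of Rai1 on the other strand. Nhej1, a DNA end-joining factor, had 89.0 FPKM in ShamF against 6.46 FPKM in ShamM at 12 weeks, and 2.31 expression units in ShamF against 4.59 in ShamM at 18 months. The ephrin gene Efna1 had 54.1 FPKM in ShamF against 26.2 FPKM in ShamM, and then 24.1 expression units in ShamF against 39.8 in ShamM. Gadd45g, a stress response gene, had 20.3 FPKM in ShamF against 64.3 FPKM in ShamM, and then 23.7 expression units in ShamF against 5.26 in ShamM. The sterol enzyme gene Idi1 had 2.99 FPKM in ShamF against 7.65 FPKM in ShamM, and then 206 expression units in ShamF against 98.5 in ShamM. No test between the ages was computed for any of them.

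The lists also differed in how many members were called at 18 months. The authors' DESeq2 test called 0 of the 20 clock genes, of which 2 had an unadjusted p under 0.05, and their median was 0.16. Of 17 immediate early genes 3 were called higher and 0 lower, and of 22 heat shock genes 0 higher and 2 lower. Endothelial and stellate cell markers, within 2-fold at 12 weeks, had 11 of 14 and 10 of 14 members called higher in ShamF at 18 months, with medians of 0.90 and 0.92. The collagen gene Col1a1 had 12.3 expression units in ShamF against 1.21 in ShamM at 18 months, and 1.98 FPKM in ShamF against 1.25 FPKM in ShamM at 12 weeks. A call at 1 age and none at the other does not show that the ages differ.

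Lists of genes known as sex-biased in mouse liver were drawn from general knowledge of such data and are no independent evidence of direction. Of 42 genes known as female-biased 35 were at least 2-fold higher in ShamF and 1 lower at 12 weeks. Among the 42, 7 were listed at 0 in 1 group at that age. At 18 months 34 were called higher and 1 lower. Of 38 known as male-biased 31 were lower and 2 higher at 12 weeks, and 32 were called lower and 2 higher at 18 months.

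In 12-week kidney 426 of 9730 genes were at least 2-fold higher in ShamF, 4.38%, and 512 were lower, 5.26%. Of the 256 liver-higher genes compared there 57 were also higher in kidney and 8 lower, and of 159 liver-lower genes 53 were lower and 7 higher. The kidney examples that follow were chosen after their values were seen. Cyp2a4 had 114 FPKM in ShamF kidney against 295 FPKM in ShamM kidney, the reverse of its liver means. Nhej1 had 3.24 FPKM in ShamF kidney against 158 FPKM in ShamM kidney. Cyp4a12a had 0.368 FPKM in ShamF kidney against 50.3 FPKM in ShamM kidney, and Slco1a1 had 0.0250 FPKM in ShamF kidney against 75.6 FPKM in ShamM kidney, both lower as in liver. Prlr had 42.5 FPKM in ShamF kidney against 3.02 FPKM in ShamM kidney. No difference between the tissues was tested.

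Castrated males stood at different levels relative to both sham groups for different genes. This group shares the sham males with the sex comparison, so only levels are given. Slc22a26 had 85.7 FPKM in ShamF, 86.1 FPKM in CasM and 0.341 FPKM in ShamM, and Mt1 had 855, 699.7 and 21.6 FPKM in the same order. Other female genes stayed low in CasM. Sult2a2 had 305 FPKM in ShamF, 0.329 FPKM in CasM and was listed at 0 in ShamM. Sult2a1 had 147 FPKM in ShamF, 0.0784 FPKM in CasM and was listed at 0 in ShamM, and A1bg had 34.9, 1.19 and 0.0366 FPKM in ShamF, CasM and ShamM. At 18 months these 3 were high in CasM, with 1499.9, 1207 and 562 expression units in ShamF, 1015, 394 and 157 in CasM and 0.313, 0.170 and 0.123 in ShamM. Cyp17a1 had 46.7 FPKM in ShamF, 1.99 FPKM in CasM and 5.30 FPKM in ShamM. Among male genes Mup7 had 0.303, 0.995 and 2866 FPKM, and Cyp2d9 had 20.3, 124 and 753 FPKM, in ShamF, CasM and ShamM.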

How the data were processed

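RNA was isolated with Trizol, poly(A)-selected and sequenced as 150 bp paired-end libraries, per the labels' protocols. The submitters' processing notes name HISAT2, SAMtools, Cufflinks and the mm10 build, without versions or roles. The authors deposited 12-week values as mean FPKM per group, with 0.01 added to every mean. Their 12-week table, with the column layout of Cuffdiff per the file headers, gives a p-value and adjusted p-value for 1 comparison per gene. For 18 months they deposited a normalized expression signal per group, of an unnamed unit, and log2 folds with p-values from DESeq2 per the file headers. By sign against the means, that log2 fold runs ShamM over ShamF in all 1206 genes called. Liver metabolites were deposited as a mean relative abundance signal per group, of unstated scale.

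Differences were of log2(mean + 1) with Python 3.11.15, numpy 2.4.6 and pandas 2.3.3, and sequences were aligned with Biopython 1.88. The calculation was tested on simulated means. Called means an authors' adjusted p under 0.05. Symbols were placed with GENCODE vM21 (17234) or RefSeq (8). Named genes are the 15 largest and 15 smallest differences with a larger mean of at least 10 and no group listed at 0, genes listed at 0 in 1 group with at least 20 in the other, and up to 6 members per list. The comparison, the 52 gene lists and the limits were chosen with earlier results of these data known. The depth per library is unknown. Of the genes the rule names 1 is not reported here.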

Additional observations from a re-analysis of the deposited data

How the results depend on the processing

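The counts past the limit depend on the pseudocount and the limit. With a pseudocount of 0.1, 620 genes were higher in ShamF and 304 lower, and with 5, 127 were higher and 126 lower. A 1.5-fold limit gave 981 higher and 839 lower. Of the 544 genes past 2-fold 276 were called the same way at 18 months. With a pseudocount of 5 this was 151 of 253, and with a 1.5-fold limit 588 of 1820, both settings chosen after seeing the data. At an adjusted p under 0.01, 125 genes entered by the authors were higher and 134 lower, and with a minimum mean of 5, 153 were higher. Apart from these, centring, other minimum means, leaving out genes listed at 0 and adding all chromosomes kept the counts they were run on within 1.5 times. No difference of a named gene and no list median past the limit changed sign under the alternatives run. With a pseudocount of 5, 48 of 288 named or example genes and the medians of 4 of 52 lists fell inside the limit (Cyp3a, immediate early, macrophage and sulfotransferase genes).

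No paired analysis was possible because the files used hold 1 mean per group and no replicate values. Leaving out single replicates and looking for outlying libraries could not be run for the same reason, and how many animals share a direction is unknown.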

Other observations

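Some genes past 2-fold in 12-week liver lay near each other. Of the 315 genes higher in ShamF 100 lay within 200 kb of another, 31.7%, and of the 229 lower genes 59, 25.8%. The same share for other genes was not computed. On chromosome 19, between 39389556 and 40012243 (mm10), 6 of 7 Cyp2c genes were higher and 1 was lower. On chromosome 4, 8 of 9 genes from Mup6 to Mup12 and 7 of 8 from Mup13 to Mup19 were lower. All 3 C1q subunit genes on chromosome 4 formed another higher run. Neighbouring copies share sequence, so such genes are not independent of each other.

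The cyclin gene Ccnd1, which drives entry into the cell cycle, had 20.5 FPKM in ShamF liver against 5.59 FPKM in ShamM liver at 12 weeks and was called higher at 18 months, with 46.0 expression units in ShamF against 3.87 in ShamM. Of the 10 cell cycle genes compared 1 was at least 2-fold higher and 1 lower at 12 weeks. Acute phase genes had 6 of 20 members at least 2-fold higher in ShamF and 0 lower, with a list median of 0.07 and 10 members on each side of 0, and 6 were called higher at 18 months. Orm3 had 12.7 FPKM in ShamF against 0.719 FPKM in ShamM. Lcn2, an iron-binding acute phase protein, had 6.67 FPKM in ShamF against 2.02 FPKM in ShamM at 12 weeks, and 120.3 expression units in ShamF against 6.32 in ShamM at 18 months.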
